A study of Rattus norvegicus with 12 samples.

Results

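Matrix metalloproteinases and their inhibitors were followed in rat heart muscle remote from an infarct, through 3 tissue inhibitors (Timp1, Timp2 and Timp3) and 4 metalloproteinases (Mmp2, Mmp3, Mmp9 and Mmp14). All probe sets of the array with one of these names as their single gene symbol were taken, whatever their values: 14 probe sets for 7 genes, of 31042 probe sets and 14217 named genes in all. The samples were free wall of the left ventricle, outside the infarct, of male Sprague-Dawley rats. Diabetic rats had received 65 mg/kg of streptozotocin, which kills pancreatic beta cells and so models loss of insulin, at an age of 8 weeks, and non-diabetic rats had received citrate buffer alone. Both were operated on 10 weeks later, with the left anterior descending coronary artery tied off, or with a sham operation. Tissue was taken at 1, 7, 14, 28 and 56 days after ligation, at labelled ages of 18, 19, 20, 22 and 26 weeks, and at 18 weeks for both sham groups. The tissue label of both sham samples names an infarct, but they are sham-operated by their protocol, which was taken as right. Every change from sham rests on these 2 arrays. Both are labelled 18 weeks, so the groups of days 7 to 56 also differ from sham in age and in time since the injection. The part of age in those changes, and in the slopes over the days, cannot be told apart from that of the day. The non-diabetic day 56 group is labelled 22 weeks and was kept at day 56, the time its protocol gives. Of the 12 arrays, 6 were diabetic and 6 non-diabetic, 1 for every time point, and the RNA on each came from a pool of 3 rats. A combination of condition and time point was therefore measured once.

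Metalloproteinases cut collagens and other proteins of the extracellular matrix and are made as inactive proenzymes. The gelatinases Mmp2 and Mmp9 digest denatured and basement membrane collagen, Mmp3 (stromelysin) cuts proteoglycans and fibronectin and activates other proenzymes, and Mmp14 sits in the cell membrane, where with Timp2 it activates pro-Mmp2. The tissue inhibitors bind the active site of these enzymes; Timp1 is a secreted, inducible form, Timp2 is expressed more steadily, and Timp3 stays bound to the matrix. In an infarcted heart this system takes part in clearing dead tissue, building scar and reshaping the wall, including muscle that was not infarcted.

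On the GRCr8 assembly the inhibitor genes lie at chrX:3766509-3772578 (Timp1), chr10:104041604-104089214 (Timp2) and chr7:19408539-19459558 (Timp3). The metalloproteinase genes lie at chr19:30327643-30355856 (Mmp2), chr8:12925267-12938828 (Mmp3), chr3:174103474-174111434 (Mmp9) and chr15:31857824-31867049 (Mmp14). The RefSeq promoter table for GRCr8 held 4 of the 7 genes. The 250 bases before the start site of Timp1, the member with the widest swing in intensity, and of Mmp3, a textbook target of the AP-1 transcription factors, are given below 5′ to 3′ on the strand of the gene, for comparison of the letters in an inducible inhibitor and an inducible protease. They span chrX:3771123-3771372 (minus strand) and chr8:12925031-12925280 (plus strand). Capitals mark matches to the AP-1 consensus TGANTCA, to the AP-1-like TGAGTAA and to the TATA box TATAAA, each searched on both strands; no 2 matches overlap. The table gives 1 start site per gene, which need not be the outermost end of the gene.
Timp1: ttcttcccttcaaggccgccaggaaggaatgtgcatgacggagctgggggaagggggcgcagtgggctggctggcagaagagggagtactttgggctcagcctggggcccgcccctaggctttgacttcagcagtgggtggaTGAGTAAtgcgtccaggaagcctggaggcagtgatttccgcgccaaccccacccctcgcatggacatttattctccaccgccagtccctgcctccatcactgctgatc
Mmp3: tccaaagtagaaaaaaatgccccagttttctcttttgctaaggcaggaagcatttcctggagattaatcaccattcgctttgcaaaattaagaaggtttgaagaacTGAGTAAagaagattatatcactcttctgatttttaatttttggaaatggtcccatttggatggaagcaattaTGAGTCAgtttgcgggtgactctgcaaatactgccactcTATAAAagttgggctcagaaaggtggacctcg

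The Timp1 window held TGAGTAA, 108 to 102 bases before the start, and neither of the other motifs. The Mmp3 window held TGAGTAA 144 to 138 bases, a TGANTCA match 71 to 65 bases and TATAAA 32 to 27 bases before the start. None of the 3 motifs was in the windows of Timp2 and Timp3. Of 33469 promoters of the same length, 2.38% held TGAGTAA, 6.34% TGANTCA and 12.9% TATAAA, so these matches are descriptions of the letters only.

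Values are the deposited probe set intensities, which have no unit in molecules and were not compared between genes. Differences are on the log2(intensity + 16) scale, which understates the change of dim genes. Heart muscle markers summed to intensities of 26932 to 34270 in diabetic and 32004 to 35112 in non-diabetic arrays, with 6 of 7 listed markers measured. Tests were run with limma over all 18625 probe sets whose mean log2 value exceeded 5.1956 (an intensity of about 20.6), and a call is an adjusted p under 0.05. This left 11 of the 14 probe sets and 5 of the 7 genes. Because the arrays are unreplicated, the error of a test comes from the scatter of the 6 diabetic minus non-diabetic pairs. For the interactions of diabetes with ligation and with the day it comes from the 5 ligated pairs. In each test limma moderates this error by the spread of all probe sets. Variation among rats was not measured.

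**Figure D1:**
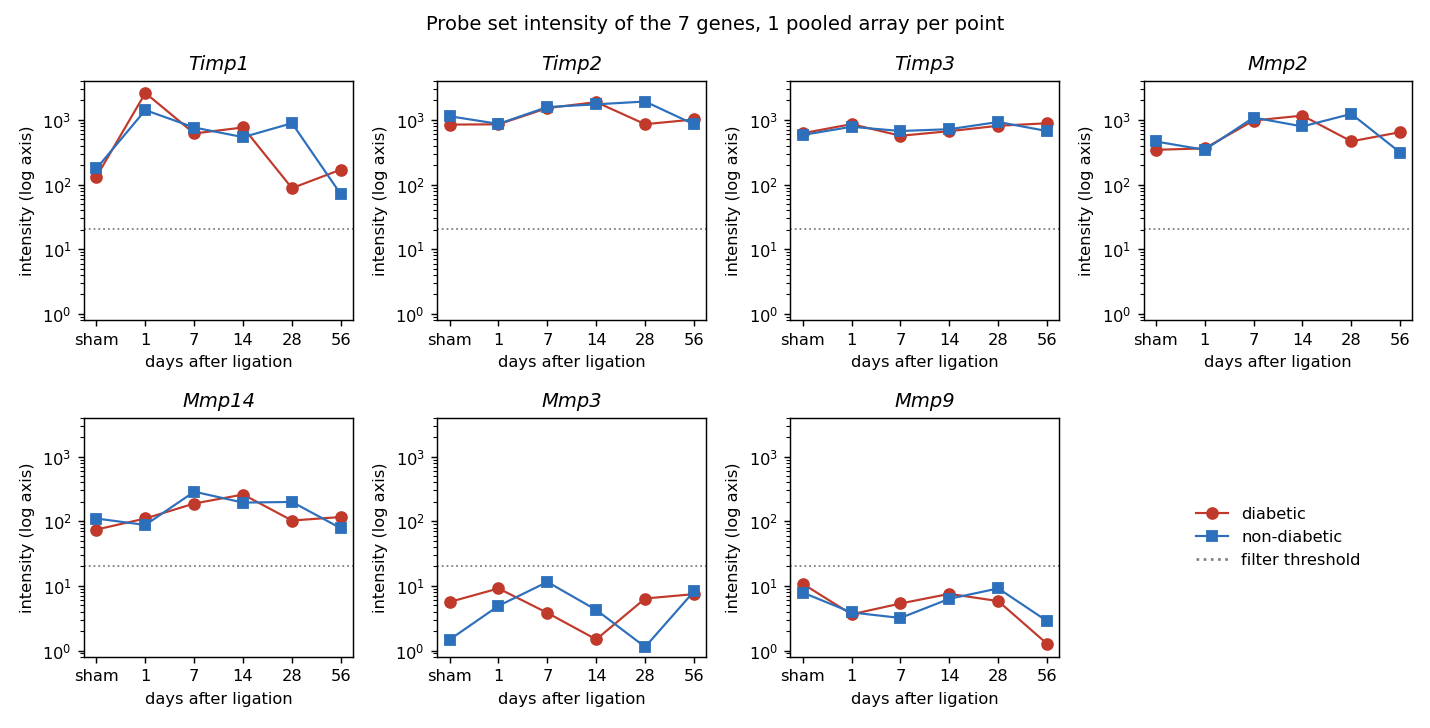
Intensity (log axis) of the brightest probe set of each of the 7 genes in each diabetic and non-diabetic array, at sham and at 1 to 56 days after ligation; each point is 1 array of 3 pooled rats, so there are no error bars, and the dotted line is the filter threshold. Timp1 peaks on day 1 in both conditions, Timp2, Mmp2 and Mmp14 lie above sham on days 7 and 14, and Mmp3 and Mmp9 stay below the threshold throughout.

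Timp1, the inducible inhibitor, rose on the day after ligation and read lower on all later days, without a steady fall in either condition. In diabetic hearts its intensity was 133 at sham, 2614 on day 1, 618 on day 7, 765 on day 14, 88.0 on day 28 and 171 on day 56. In non-diabetic hearts it was 177 at sham, 1419 on day 1, 764 on day 7, 542 on day 14, 891 on day 28 and 70.5 on day 56. Both day 1 arrays stood above every other array, and both day 7 and day 14 arrays stood above both sham arrays. On day 28 the arrays parted: the diabetic one was below both shams and the non-diabetic one above both, while on day 56 the diabetic array lay between the shams and the non-diabetic array was the lowest of the 12.

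Day 1 over sham was 17.7-fold in diabetic and 7.42-fold in non-diabetic hearts. Over both conditions the change was 3.52 ± 0.76 (log2, SE; n = 2 arrays a time point), with a limma adjusted p of 0.0221. On day 1, 4.2% of all probe sets were called higher and 3.27% lower; of the 11 tested here 1 was called higher, this one, and 0 lower. The call was lost without the diabetic sham array (limma adjusted p 0.171), the diabetic day 1 array (0.202, with a change of 2.86) or the non-diabetic sham array (0.103).

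The later Timp1 changes from sham were 2.05 on day 7 (limma adjusted p 0.12), 1.96 on day 14 (0.402), 0.86 on day 28 (0.999) and -0.42 on day 56 (0.804), none of them called. The days 7 and 14 overlapped in their 2 arrays each and do not differ beyond their spread. Over the 5 days after ligation Timp1 fell by 0.63 ± 0.12 (log2, SE) for each doubling of the day, with a limma adjusted p of 0.0044. Falling slopes were called for 18.4% of all probe sets and rising ones for 10.1%, against 1 and 2 of the 11 here. The Timp1 slope was not called without the diabetic day 1 array (adjusted p 0.0659) or without the day 56 pair (0.0579), the second of these chosen after seeing the data.

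The sum of the neutrophil marker intensities was high on both day 1 arrays, as Timp1 was. It was 197 at sham, 1901 on day 1, 136 on day 7, 247 on day 14, 167 on day 28 and 43.6 on day 56 in diabetic hearts. In non-diabetic hearts it was 311 at sham, 812 on day 1, 128 on day 7, 52.1 on day 14, 1129 on day 28 and 50.7 on day 56. Of the 9 listed markers 5 were on the array and 3 above the filter (S100a8, S100a9 and Csf3r). S100a8 and S100a9 made up most of the sum, with 639 and 1136 on diabetic day 1. Csf3r read 10.9 and 11.5 at sham, and it passed the filter only through its day 1 values of 95.5 and 45.5. Cxcr2, a defining neutrophil receptor, stayed at or below an intensity of 15.3. From sham to day 1 it went from 1.08 to 15.3 in diabetic and from 4.65 to 4.74 in non-diabetic hearts. Camp went from 9.64 to 15.0 and from 8.63 to 6.01. The sum was also above both shams on the non-diabetic day 28 array and below both on the diabetic one. On day 7 it was below both shams, where Timp1 read above them. Its part in the Timp1 values was not tested. In tissue of mixed cells, fewer cells of a type and less RNA per cell cannot be told apart.

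Timp2, which binds Mmp14 and pro-Mmp2 as well as inhibiting, stayed between 847 and 1927 in its brighter probe set. Its brighter probe set read 847 at sham, 856 on day 1, 1527 on day 7, 1888 on day 14, 859 on day 28 and 1016 on day 56 in diabetic hearts. The non-diabetic arrays read 1141 at sham, 869.5 on day 1, 1583 on day 7, 1745 on day 14, 1927 on day 28 and 856 on day 56. All 4 arrays of days 7 and 14 stood above both sham arrays, and no day 1 array did so. The changes of 0.65 (day 7, limma adjusted p 0.211) and 0.87 (day 14, 0.402) were not called, and the slope was 0.045 (0.514). The dimmer Timp2 probe set ranged over intensities of 76.4 to 209 and correlated with the brighter one at Pearson r 0.493 over the 12 arrays.

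Timp3, the inhibitor held in the matrix, has 4 probe sets above the filter, and they disagreed. The brightest was nearly level: 623, 862, 569, 670.2, 813 and 887 in diabetic hearts from sham to day 56, and 586, 783, 674, 719, 929.5 and 673 in non-diabetic hearts. The next brightest ranged from 433 to 878. The dimmest read 49.2, 22.1, 12.8, 62.9, 97.0 and 114 in diabetic hearts from sham to day 56, and 35.2, 16.5, 14.8, 45.9, 41.5 and 64.4 in non-diabetic hearts. Its 4 arrays of days 1 and 7 were all below every other array.

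For this dimmest probe set the day 7 change was -0.96 ± 0.25 (limma adjusted p 0.0421), and it was the 1 of 11 probe sets called lower on that day, with 0 called higher, against 2.97% and 4.67% of all probe sets. That call held in 6 of its 18 alternatives and was lost in 12. The day 1 change was -0.72 (adjusted p 0.102). The slope over the days after ligation was 0.29 ± 0.040 for each doubling of the day (adjusted p 0.000757), called in all 20 alternatives of this result. The next dimmest read 81.1, 71.6, 68.8, 148, 169.6 and 177 in diabetic and 104, 82.6, 77.0, 109.7, 140.3 and 110.0 in non-diabetic hearts, with a slope of 0.16 (adjusted p 0.0183; lost in 4 of 21 alternatives).

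The 4 arrays of days 1 and 7 also stood apart in RNA quality. The 3′ beta-actin control probe set exceeded the 5′ one by 0.982 to 1.00 (log2) on those 4 arrays and by 0.368 to 0.589 on the other 8. The part of this difference in the readings of the 2 dimmer Timp3 probe sets was not tested. The 2 brighter Timp3 probe sets were not called on any day or in the slope. Every call against sham in the text, those of Timp1 and of the other proteases, inhibitors and matrix genes included, also falls on days 1 or 7. The part of RNA quality in those calls cannot be told apart from that of the day. The slopes set days 1 and 7 against the later days, so the same limit holds for every called slope. Those of Timp1, Mmp15, the cathepsins and the macrophage markers are included.

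**Figure D2:**
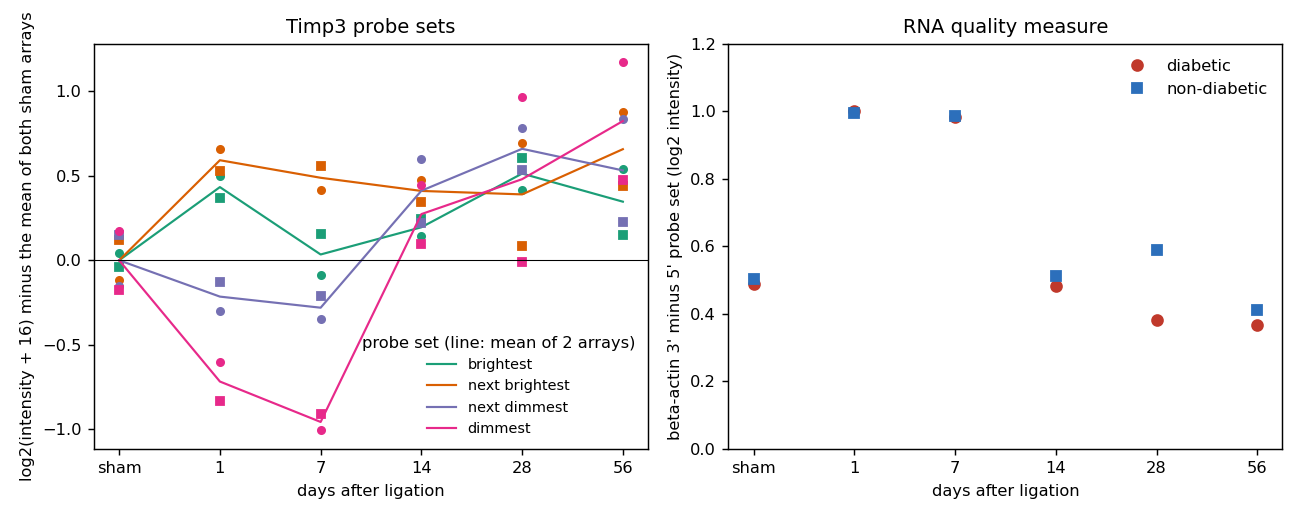
Left, the 4 Timp3 probe sets as log2(intensity + 16) minus the mean of both sham arrays, at sham and at days 1 to 56 after ligation (circles diabetic, squares non-diabetic, lines the mean of the 2 arrays); right, the beta-actin 3′ minus 5′ difference (log2) of each array. The dimmest probe set dips on days 1 and 7, where the actin difference is 0.982 to 1.00, while the brightest does not.

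Mmp2, the gelatinase of resident connective tissue cells, read above sham on days 7 and 14 in both conditions, without passing the test. Its brighter probe set read 345 at sham, 363 on day 1, 979 on day 7, 1167 on day 14, 466 on day 28 and 648 on day 56 in diabetic hearts. Non-diabetic hearts had 464 at sham, 345 on day 1, 1089 on day 7, 793 on day 14, 1240.2 on day 28 and 313 on day 56. All 4 values of days 7 and 14 exceeded both sham values, the day 1 arrays were not above the non-diabetic sham, and on day 28 the diabetic array was level with the non-diabetic sham while the non-diabetic array was the highest of the 12. The changes were 1.33 ± 0.44 on day 7 (limma adjusted p 0.0896) and 1.23 on day 14 (0.402). The slope was 0.091 (0.352). A second Mmp2 probe set was dim, at 22.4 to 58.3, and correlated with the first at -0.419 over the 12 arrays.

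Mmp14, the membrane-bound activator of pro-Mmp2, also read above sham on days 7 and 14 in its brighter probe set. That probe set read 74.4 at sham, 110.4 on day 1, 188 on day 7, 259 on day 14, 103 on day 28 and 116 on day 56 in diabetic hearts. It read 110.2 at sham, 87.7 on day 1, 287 on day 7, 195 on day 14, 199 on day 28 and 77.9 on day 56 in non-diabetic hearts. Its 4 arrays of days 7 and 14 were again above both shams, by 1.22 ± 0.35 on day 7 (limma adjusted p 0.0567) and 1.17 on day 14 (0.402), and its slope was 0.012 (0.887). The second Mmp14 probe set ranged from 50.4 to 221, with its highest intensity in the non-diabetic day 7 array. On day 14 it read 97.4 in the diabetic and 50.4 in the non-diabetic array, against 83.5 and 68.1 at sham. With the mean of both probe sets the day 14 change of Mmp14 was 0.55 in place of 1.17.

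Without the diabetic day 28 array, day 7 was called for Timp1 (limma adjusted p 0.00336), Mmp2 (0.0163) and Mmp14 (0.02) at unchanged log2 changes. Without the non-diabetic day 28 array the values were 0.00356, 0.0167 and 0.0199. The median change of all probe sets was 0.151 on day 7, and with array medians made equal the day 7 change was 1.94 for Timp1 and -1.06 for the dimmest Timp3 probe set. Either removal of a day 28 array takes the day 28 pair, the most discordant one for Timp1, out of the residual spread. Without the day 1 pair, an alternative chosen after seeing the data, the slope was -0.41 for Mmp14 (adjusted p 0.0336), -0.38 for Mmp2 (0.0872) and -0.27 for Timp2 (0.0801).

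Timp2, Mmp2 and Mmp14 varied together over the 12 arrays, with Pearson r of 0.941 for Timp2 and Mmp2, 0.922 for Timp2 and Mmp14 and 0.943 for Mmp2 and Mmp14. Timp1 correlated with them at 0.372, 0.332 and 0.467. These describe arrays that share time points and tissue makeup. Fibroblast markers, all 8 above the filter, summed to 5345 at sham, 4715 on day 1, 18031 on day 7, 14069 on day 14, 5629 on day 28 and 7014 on day 56 in diabetic hearts. In non-diabetic hearts the sum was 6930 at sham, 5079 on day 1, 18409 on day 7, 6970.4 on day 14, 11349 on day 28 and 4608 on day 56. The sum was high on the arrays where Mmp2 and Mmp14 were high, other than non-diabetic day 14. Its members did not move alike on day 7: Col1a1, Col1a2, Postn and Thy1 were called higher, while Dcn (0.13), Pdgfra (0.35), Tcf21 (-0.26) and Lum (1.18) were not called, with limma adjusted p of 0.165 or more. Col1a1, Col1a2 and Dcn are also among the matrix substrates. The part of the sum in the values of Timp2, Mmp2 and Mmp14 was not tested.

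Mmp3 and Mmp9, both known as proteases induced in inflammation, gave intensities below the filter on average. Mmp3 read 5.64, 9.14, 3.82, 1.48, 6.38 and 7.46 in diabetic hearts from sham to day 56, and 1.47, 4.91, 11.5, 4.25, 1.14 and 8.24 in non-diabetic hearts. Its place among all probe sets of an array lay between the percentiles 2.65 and 25.8. The brighter Mmp9 probe set read 10.8, 3.63, 5.34, 7.53, 5.82 and 1.27 in diabetic and 7.89, 3.88, 3.19, 6.31, 9.15 and 2.85 in non-diabetic hearts, and the other stayed between 1.31 and 6.20. Neither gene showed a peak on day 1 or day 7 shared by both conditions. In a fit without the filter none of their 3 probe sets was called in any comparison, and the lowest adjusted p was 0.117 for Mmp9 on day 1. At such intensities a change in the transcript was not detectable, which does not show that there was none.

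On days 14, 28 and 56 no probe set on the array passed the limma test against sham (0% called on each), with 2172, 675 and 3062 probe sets at an unadjusted p under 0.05. Among the 11 probe sets here those numbers were 5, 1 and 2.

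Diabetes itself gave no called difference in any of the 5 genes tested. Over the array 0.376% of probe sets were called for diabetic minus non-diabetic in either direction, and 0 of the 11 here, with 1 at an unadjusted p under 0.05. The difference was -0.22 ± 0.44 for Timp1 (limma adjusted p 0.895), -0.22 ± 0.18 for Timp2 (0.703) and 0.014 ± 0.14 for the brightest Timp3 probe set (0.981). It was -0.052 ± 0.26 for Mmp2 (0.963) and -0.12 ± 0.20 for Mmp14 (0.865). These errors leave room for sizeable differences in either direction. The dimmest Timp3 probe set, the 1 of 11 just mentioned, was higher in diabetic hearts in 5 of 6 pairs, by 0.42 ± 0.14 (adjusted p 0.337).

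The day 28 pair set these means apart from the rest. For Timp1 the diabetic minus non-diabetic difference was -0.38 at sham, 0.87 on day 1, -0.30 on day 7, 0.49 on day 14, -3.12 on day 28 and 1.11 on day 56. It was thus positive in 3 of 6 pairs, and without the day 28 pair the fitted difference was 0.36 in place of -0.22. Mmp2 was lower in the diabetic array by a difference of -1.38 on day 28 and higher by 1.01 on day 56. On day 28 the macrophage marker sum was 3443 in the diabetic and 8013 in the non-diabetic array, and the neutrophil and fibroblast sums above were also lower in the diabetic one. Their part in the day 28 differences was not tested.

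The interaction of diabetes with ligation, and that of diabetes with log2 of the day among ligated hearts, were each called for 0% of probe sets by limma (125 and 838 at an unadjusted p under 0.05) and for 0 of the 11 here (0 and 0). A test of this kind rests on 1 array per condition and time point.

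**Figure D3:**
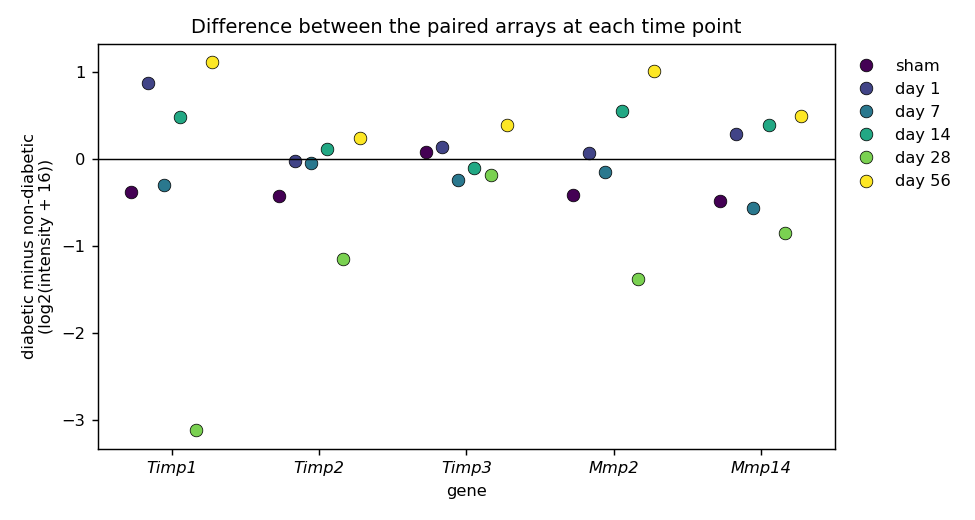
Diabetic minus non-diabetic difference in log2(intensity + 16) for the brightest probe set of the 5 genes above the filter, 1 point per time point, each from 2 arrays. Day 28 is the lowest point for Timp1 (-3.12), Timp2, Mmp2 and Mmp14, and day 56 the highest for all 5 genes.

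For each gene the 3 named genes with the most similar course, by Pearson r over the 12 arrays among 10623 genes, were looked up as a description. Timp1 was closest to Mcmbp (0.973), Tubb6 (0.972), a tubulin, and Fkbp11 (0.971), a prolyl isomerase of the endoplasmic reticulum. Timp2 was closest to Serpinf1 (0.972), Gpx7 (0.968) and Serpine2 (0.967), the protease inhibitor nexin-1. Mmp2 was closest to Plxdc2 (0.974), Thbs3 (0.966), a thrombospondin, and Chpf (0.964), which builds chondroitin chains. Mmp14 was closest to Loxl1 (0.950), Antxr1 (0.947) and Efemp2 (0.945), the first and last of which serve elastic fibre assembly. For Timp3 the best matches, Ehbp1l1 (0.828), Dot1l (0.797) and Stat3 (0.793), were looser.

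Among other inhibitors and their partners, Timp4, the inhibitor enriched in heart, read below sham from day 1 on and was called lower on day 7. It read 559, 270.3, 191, 288, 214 and 248 in diabetic hearts from sham to day 56, and 550.1, 314, 168, 399, 382 and 304 in non-diabetic hearts. Both sham arrays were above all ligated ones, and the day 7 change was -1.55 ± 0.27 (limma adjusted p 0.00855). Of 8 listed genes 6 were tested. On day 7, 1 was higher, Thbs2 (1.42, limma adjusted p 0.0481), and 1 lower, Timp4. Over all 10623 genes 355 were higher and 203 lower (over all probe sets, 4.67% and 2.97%). On day 1 none of the 6 was called, beside 4.2% of all probe sets called higher and 3.27% lower. Reck, a membrane-anchored inhibitor of Mmp2, Mmp9 and Mmp14, was not called on any day.

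Of 17 other metalloproteinases 13 were on the array and 6 passed the filter, and none of the 6 was called on any day or for diabetes. On days 1 and 7, 4.2% and 4.67% of all probe sets were called higher, and 3.27% and 2.97% lower. No probe set was called on the later days, and 0.376% were called for diabetes. Mmp15, a membrane-type relative of Mmp14, had a rising slope of 0.20 (limma adjusted p 0.00835), the only one of the 6 called. Rising slopes were called for 730 of all 10623 genes (10.1% of all probe sets), so 1 of 6 does not set the list apart. Mmp8, the neutrophil collagenase, stayed between 12.6 and 35.9, and Mmp13, the main rodent interstitial collagenase, was below the filter at intensities of 0.615 to 12.3. Mmp12, the macrophage elastase, was below the filter on average, with 7.99 at sham in the diabetic and 4.50 in the non-diabetic array. It read 49.1 and 22.6 on day 1, and 26.0 and 182 on day 7, in the same order. On day 28 it read 0.064 in the diabetic and 63.5 in the non-diabetic array.

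Some proteases that work upstream of or beside the metalloproteinases were called higher on day 1, as Timp1 was. Plau, the urokinase that generates plasmin, had a day 1 change of 1.45 (limma adjusted p 0.046), and its receptor Plaur one of 1.93 (0.00465). These were 2 of the 4 tested genes of the plasminogen system, beside 4.2% of all probe sets called higher on day 1. Adamts4, an aggrecan-cutting protease, changed by 2.76 (0.00268) and Adamts9 by 1.07 (0.0315), the 2 called of 11 in the family on that day. At sham, Plaur (14.1 diabetic, 8.25 non-diabetic) and Adamts4 (3.66 and 9.11) read below the filter threshold. Over the other arrays the mean of each lies below that threshold. Both were therefore tested only through the high day 1 values that were then called. Neither count can be weighed against the share over all probe sets. On day 7, 355 of all 10623 genes and 4.67% of all probe sets were called higher. The calls on that day were Adamts15 (0.94, limma adjusted p 0.0416) and, among 8 cathepsins, Ctsk (2.11, 0.0481), a collagen-cutting enzyme.

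Of 16 matrix proteins that these enzymes cut, 8 were called higher on day 7 and 0 lower. Over all 10623 genes, 1 probe set each, 355 were called higher and 203 lower. Counted over all 18625 probe sets instead, the shares were 4.67% and 2.97%. Among the 8 were Col1a1 (3.74, limma adjusted p 0.00531), Col3a1 (2.01, 0.0389) and Fn1 (3.04, 0.0364). The median change on day 7 was 1.58 over these 16 genes and 1.22 over the 5 genes of the set, beside 0.163 over all 10623 genes. On day 1 those medians were 0.0553, 0.0997 and 0.0887, and Vcan (versican, 2.46, adjusted p 0.0249) was the 1 substrate called. Diabetes was called for 0 genes in each of these lists, near the share of 0.376% over all probe sets.

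**Figure D4:**
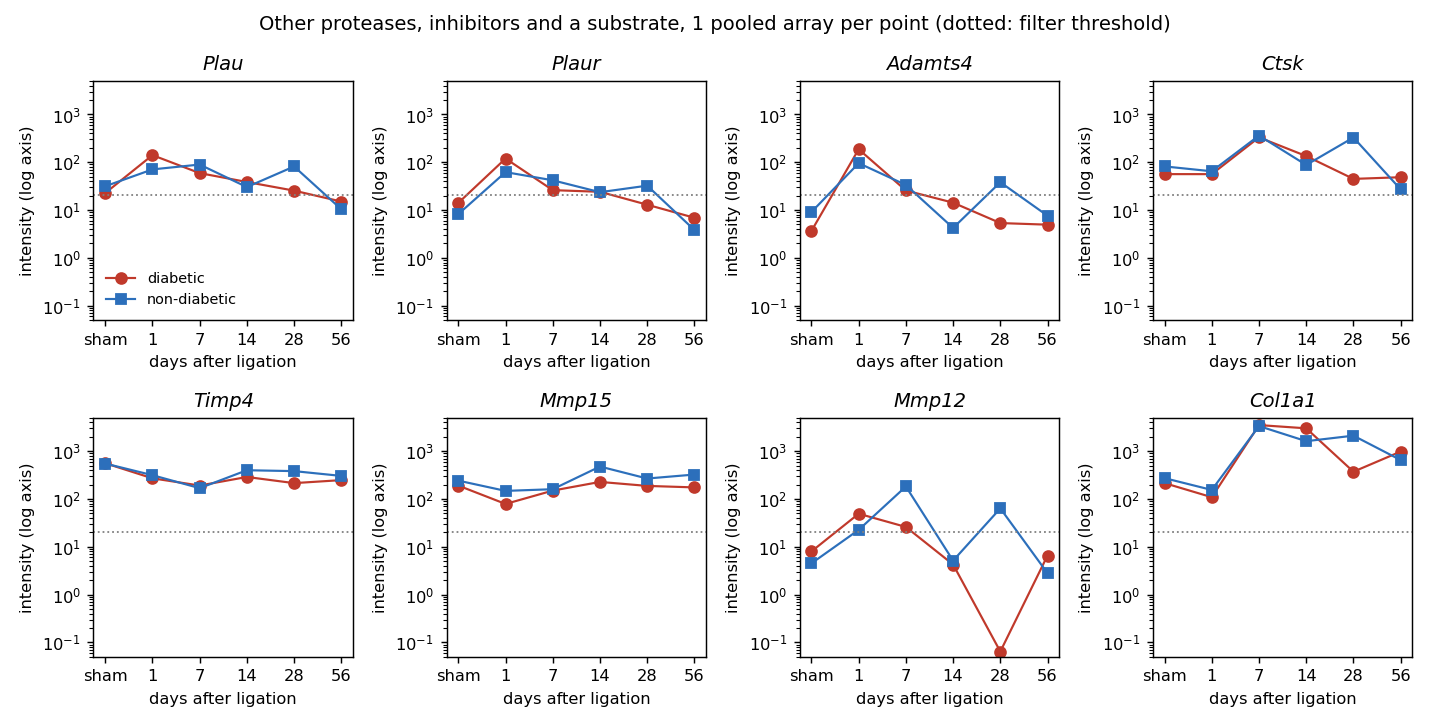
Intensity (log axis) of 8 genes around the metalloproteinases in each diabetic and non-diabetic array, at sham and at days 1 to 56 after ligation; each point is 1 pooled array and the dotted line is the filter threshold. Plau, Plaur and Adamts4 stand above both shams on days 1 and 7 (Plaur 120 diabetic and 62.2 non-diabetic on day 1), Ctsk and Col1a1 on days 7 and 14, and Timp4 is highest at sham.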

How the data were processed

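Per the labels, total RNA from pools of 3 rats was hybridised to 12 Affymetrix rat arrays. The values that the authors deposited are linear intensities, 1 per probe set and array, from PLIER in Affymetrix Expression Console (per the submitters' processing notes). Their versions, and how background and scaling were handled, are not given in the sources. Array medians were 28.8 to 34.7, and no further scaling was applied. The number of arrays limits the precision.

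Of 31099 probe sets, 57 controls were removed; 20826 of the rest had 1 symbol in the platform annotation, 436 several (unused) and 9780 were not listed. Log2 values of the intensity plus 16 were computed, and probe sets above the 40th percentile of mean log2 were kept (18625; 10623 genes). The brightest probe set by mean stands for its gene, and counts over gene lists use that probe set alone. Over all 10623 genes so taken, 392 were called higher and 245 lower on day 1, and 355 and 203 on day 7. Rising slopes were called for 730 of them and falling ones for 2140. A linear model with time point as a factor and diabetes was fitted with limma 3.58.1 in R 4.3.3 (lmFit, eBayes with trend; 5 residual degrees of freedom, and 4 and 3 for the interactions). Benjamini-Hochberg adjustment ran over all 18625 probe sets of a comparison, and the pipeline was tested on simulated data. Errors are model standard errors.

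The members, the gene lists and the cell type markers were chosen with earlier results of these data known. Named genes are all probe sets of the 7 genes, up to 3 genes of a list with the smallest p in a comparison, known partners, and the 3 genes most alike over the arrays. Alternatives were other scaling, offsets of 1 and 64, no filter or one at the 60th percentile, no variance trend, the mean of a gene's probe sets, and leaving out arrays or pairs.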

Additional observations from a re-analysis of the deposited data

Results flagged for a closer look

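In 9 cases the diabetic and non-diabetic arrays moved in opposite directions from their own sham, 1 array each, and none of these differences was tested on its own; the interaction tests over all days called none of these genes. For Timp1 on day 28 the change from sham was -0.51 in diabetic and 2.23 in non-diabetic hearts, a difference of -2.74. On day 56 Timp1 changed by 0.33 in diabetic and -1.16 in non-diabetic hearts, a difference of 1.49. Mmp2 on day 56 changed by 0.88 in diabetic and -0.55 in non-diabetic hearts, a difference of 1.42. Mmp14 on day 56 changed by 0.55 in diabetic and -0.43 in non-diabetic hearts, a difference of 0.98. Timp2 on day 56 changed by 0.26 in diabetic and -0.41 in non-diabetic hearts, a difference of 0.67. On day 1 the same differences were 0.77 for Mmp14 (0.48 diabetic, -0.28 non-diabetic), 0.48 for Mmp2 (0.068 and -0.41) and 0.40 for Timp2 (0.014 and -0.39). On day 7 it was -0.32 for Timp3 (-0.13 diabetic, 0.20 non-diabetic). The non-diabetic day 56 array is the one whose labelled age differs from that of its pair, and its macrophage marker sum, 1048, was the lowest of the 12 arrays, against 2335 in the diabetic array.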

How the results depend on the processing

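With 1 array per condition and time point, single arrays weighed heavily on the counts. The 70 probe sets called for diabetes became 35 without the 4 arrays of days 1 and 7, and 6 to 92 when 1 pair was left out (6 without day 56). The day 1 count of 1392 was 2384 with no filter, 638 with the filter at the 60th percentile and 187 (without diabetic sham) to 2710 (without diabetic day 28) when 1 array was left out. The day 7 count of 1424 was 2775, 481 and 168 (without diabetic sham) to 2858 (without diabetic day 28) in the same order. The counts of 0 became 0 to 50 on day 14, 0 to 161 on day 28 and 0 to 757 on day 56 with 1 array left out, the highest without a day 28 array; day 56 also gave 2 with an offset of 1 and 10 with no filter. The slope count of 5309 was 3328 with the stricter filter, 2077 without the day 56 pair and 1749 to 7221 with 1 array left out. The interaction with ligation gave 1 call with an offset of 1. Of the 5 genes tested, 1 was called on day 1 (0 to 1 with 1 array left out), 0 on day 7 (1 with no filter, Mmp14; 0 to 3 with 1 array left out) and 1 for the slope (2 without the day 1 pair, 0 without the day 56 pair, 0 to 1 with 1 array left out); these counts use the brightest probe set. Signs turned as follows, for changes not called in the report, and the cause was not tested. With 1 pair left out the diabetes difference ran from -0.49 to 0.36 for Timp1, from -0.27 to 0.21 for Mmp2, from -0.25 to 0.024 for Mmp14 and from -0.062 to 0.064 for Timp3; single turned values were 0.019 for Mmp2 without sham and -0.00053 and -0.011 for Timp3 without sham and day 1. With 1 array left out the Timp1 change ran from -0.88 to 2.60 on day 28 and from -1.21 to 0.38 on day 56. The Mmp14 slope was -0.016 as the mean of its probe sets, ran from -0.032 to 0.056 with 1 array left out (-0.032, -0.031 and -0.018 where it turned) and was -0.41 without the day 1 pair, where those of Mmp2 and Timp2 were -0.38 and -0.27. The labels give no replicate numbers to block on; the time point, which pairs the conditions, is in the model.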

Other observations

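Signals known to induce these genes were also looked up, 19 listed and 14 above the filter. On day 1, 3 were higher by limma: Tgfb2 (2.83, adjusted p 0.00216), Fosl1 (2.01, adjusted p 0.000702), an AP-1 subunit, and the cytokine Il1b (1.96, adjusted p 0.00199). Jun, another AP-1 subunit, was the 1 called lower (-1.06, adjusted p 0.0398). Over the array 4.2% of probe sets were called higher on day 1 and 3.27% lower. Fosl1 read 216 on day 1 in the diabetic and 104 in the non-diabetic array, and 5.57 to 34.0 on the other 10. Il6 was below the filter on average, with 60.8 in the diabetic and 36.6 in the non-diabetic day 1 array. Diabetes was called for 0 of the 14, near the share of 0.376% over all probe sets.

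The cathepsins, lysosomal proteases of macrophages and other cells, had falling slopes by limma for 3 of 8: Ctsz (-0.27, adjusted p 0.0182), Ctss (-0.22, adjusted p 0.0346) and Ctsl (-0.14, adjusted p 0.0189). Of the 10 macrophage markers above the filter 5 also had a called falling slope and 0 a rising one. Over all 10623 genes 2140 had a falling and 730 a rising one (over all probe sets, 18.4% and 10.1%). What the marker slopes have to do with the cathepsins was not tested.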
